A study of Mus musculus with 12 samples.

Results

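Restraint stress and an injection of corticosterone (CORT) were compared by the difference between the changes they left in intestinal stem cells (ISCs). For every gene, the change from CORT-free vehicle to CORT was subtracted from the change from untreated control (Ctrl) to stress, in 1 model of all 12 of the 12 libraries in the series. A positive difference means a higher change in stress, and a negative difference a higher change in CORT. The sorted cells of the small intestine carried the highest level of enhanced green fluorescent protein (Lgr5-EGFP-hi), and the gate took cells with the epithelial protein EpCAM and without CD24, a protein of Paneth and other secretory cells. In the *Lgr5-EGFP-IRES-CreERT2* allele that all mice carried, the locus of the ISC marker *Lgr5* drives this protein. There were 3 libraries in each of 4 groups. Ctrl mice were neither restrained nor injected, and the study's methods for repeated restraint state that food and water were withheld from controls for as long as from restrained mice. Stress mice were restrained on 1 day, and the methods for repeated restraint state 3 h per day in a tube. Vehicle mice received an intraperitoneal injection of 20% sulfobutylether-β-cyclodextrin, and CORT mice received 5 mg/kg CORT in the same solution. The methods give an age of 8 to 10 weeks and the use of both sexes for the experiments of the study. The numbers of the stress libraries are 1+2, 3 and 4+5+6, of which the joined ones read as pools of mice, and the labels use the abbreviation for chronic restraint although the methods state 1 day.

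Corticosterone is the main glucocorticoid of rodents, released from the adrenal gland when the hypothalamus and pituitary are activated. It binds the glucocorticoid receptor (*Nr3c1*), which moves to the nucleus and acts on target genes such as *Fkbp5*, *Sgk1* and *Tsc22d3*. Restraint raises CORT through that axis together with other hormones, nerve signals and changes in feeding, whereas the injection gives the hormone alone with the strain of handling. ISCs at the crypt base divide constantly and give rise to absorptive enterocytes, and to the goblet, Paneth, enteroendocrine and tuft cells that secrete mucus, antimicrobial products and signals.

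The libraries held 15934907 to 17135770 estimated counts in stress and 16152289 to 16943362 in Ctrl, against 16465961 to 31280267 in vehicle and 29426183 to 69533214 in CORT, so low levels were measured most precisely in CORT. ISC markers were abundant in every library, where 6 of them (among them *Lgr5* and *Olfm4*) summed to 10700 to 13900 CPM (counts scaled to a common library size). *Olfm4* alone held 6880 to 10300 CPM of this sum. By contrast, 6 markers each of blood, stromal and red blood cells summed to at most 6.61, 3.23 and 0.462 CPM. The defining markers *Csf1r*, *Col3a1*, *Cdh5*, *Hbb-bs* and *Hbb-bt* were at 0 in all 12 libraries. Enterocyte markers (*Alpi*, *Fabp1*, *Apoa1*, *Apoa4*, *Sis* and *Fabp2*), none of them at 0 throughout, summed to 322 to 1690 CPM in stress against 125 to 202 CPM in the other 9 libraries. Among the stress libraries, the sum was lowest in stress 3 and highest in stress 4+5+6. Over all libraries, 6 goblet markers summed to 389 to 1460 CPM and 6 Paneth markers to 104 to 263 CPM. *Xist*, made in female cells, was at 704 to 1330 CPM in stress 4+5+6, vehicle 5, vehicle 6, CORT 4 and CORT 5 and at 0.243 to 16.8 CPM in the other 7 libraries, so the 3 Ctrl libraries read as male and 2 of the 3 vehicle libraries as female. Stress 4+5+6 also held 49.2 CPM of 4 genes of the Y chromosome. The part of sex in the results was not tested. On the 2 leading principal components, the treated libraries lay above the control libraries of their own pair on the first (18% of the variance), and the second (15.1%) placed all Ctrl and stress libraries at 7.27 or higher and all vehicle and CORT libraries at 0.355 or lower. The labels give no date or batch, so a batch shared by each pair of groups cannot be told apart from the pair.

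Of 14415 genes tested, the difference passed an adjusted p of 0.05 in edgeR's quasi-likelihood F-test for 28 genes with a higher change in stress (0.194% of those tested) and 28 with a higher change in CORT (0.194%). The difference exceeded 2-fold in 19 and 13 of them. At an unadjusted p under 0.05, there were 1010 genes on the stress side (7.01%) and 788 on the CORT side (5.47%). In the same fit, stress vs. Ctrl gave 309 higher (2.14%) and 201 lower genes (1.39%), and CORT vs. vehicle gave 548 higher (3.8%) and 638 lower genes (4.43%). Counts of list members given below are to be read against these shares of all genes, adjusted or unadjusted. By p, the first genes on the stress side were *Mmp7*, *Gramd3*, *Fgfr2*, *Reg1*, *Ttc22* and *Clip2*, and those on the CORT side *Hpgd*, *Clic4*, *Sesn1*, *Trp53inp1*, *Rrm2* and *Glul*. Further down, the stress side held more *Reg* genes and the enterocyte genes *Fabp1*, *Rbp2* and *Ace*, and the CORT side the glucocorticoid targets *Mt1*, *Mt2* and *Bcl6*.

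**Figure D1:**
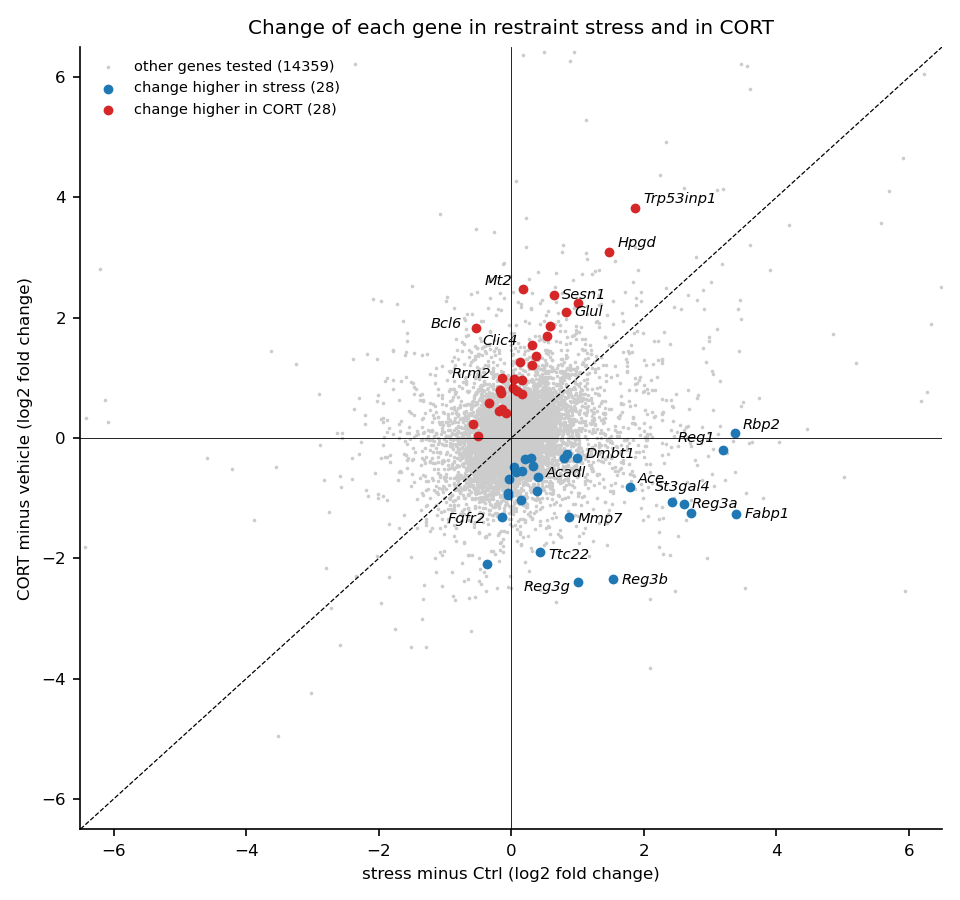
Log2 fold change of each of 14415 genes in stress against Ctrl (horizontal) and in CORT against vehicle (vertical), with the dashed line where both changes are equal. Blue points are the 28 genes called with a higher change in stress and red points the 28 called with a higher change in CORT. *Hpgd* and *Trp53inp1* rose in both treatments and lie above the line, while *Reg1*, *Rbp2* and *Fabp1* lie at a stress change of 3.20 to 3.39 near or below a CORT change of 0. The 38 genes beyond 6.5 on either axis, *Chrd* among them, are outside the plot.

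The genes called in the difference were sorted by their calls in the separate treatments. On the stress side, the fitted change was above 0 in stress in 23 of 28 genes and below 0 in CORT in 27 of 28, mostly without passing in both. On the CORT side, 19 of the 28 genes were called in CORT vs. vehicle alone, 6 in both comparisons in the same direction (*Hpgd*, *Sesn1*, *Trp53inp1*, *Glul*, *Fut4* and *Tmc7*) and 3 in stress vs. Ctrl alone (*Tcf19*, *Zfp36l2* and *Chrd*). On the stress side, 17 genes were called in CORT alone, 10 in stress alone and only *Mmp7* in both, in opposite directions. Of all genes tested, 243 were called in both treatments in the same direction, 1 in opposite directions, 266 in stress alone and 942 in CORT alone. The difference itself was called in 6 of the 243, 13 of the 266 and 36 of the 942. The comparisons and their difference use the same libraries, so the classes describe the calls and are not separate evidence.

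The difference equals stress minus CORT plus vehicle minus Ctrl, so a shift between the control groups enters it. Both terms are given below for some genes only. The control term, vehicle minus Ctrl, was -0.78 for *Trp53inp1*, -0.89 for *Bcl6*, 0.90 for *Ttc22* and 0.48 for *Gramd3*. It was 0.32 for both *Il17rc* and *Slc1a3* and 1.25 for *Reg3b*. None of these genes passed in vehicle vs. Ctrl. Stress and CORT libraries differed in 344 genes higher in stress (2.39%) and 193 lower (1.34%), and the control groups in 48 genes higher in vehicle (0.333%) and 35 lower (0.243%). Vehicle minus Ctrl was above 0 in 28 of 28 genes on the stress side (median log2 0.33) and below 0 in 23 of 28 on the CORT side (median -0.24). The control libraries enter the difference with that sign, so the sign is fixed in part by the choice of genes and nothing is read from it. The control term was the larger of the terms in 5 genes on the stress side (*Mmp7*, *Dmbt1*, *Acadl*, *Daglb* and *Slc39a10*) and in 6 on the CORT side (*Idi1*, *Arrdc3*, *Lbh*, *Ezh2*, *Cirbp* and *Arl4c*). In the other 45 genes, the treated groups differed more than the control groups did.

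**Figure D2:**
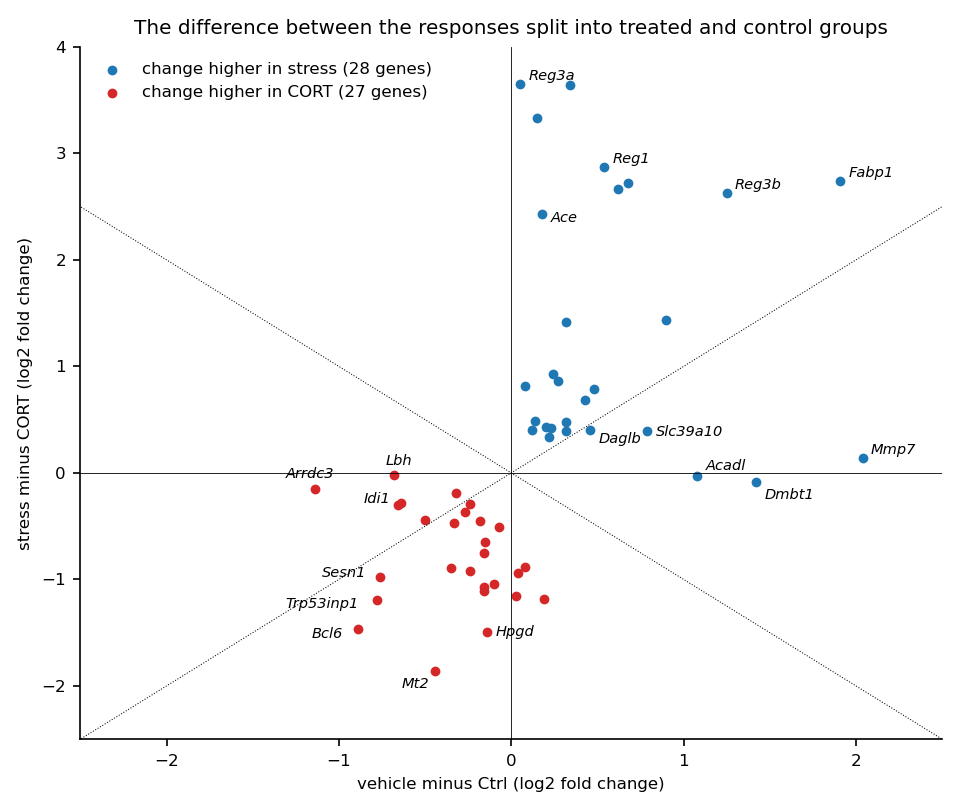
Log2 fold change of vehicle against Ctrl (horizontal) and of stress against CORT (vertical) for the genes called in the difference, with *Chrd* left out because its stress libraries held no counts. Between the dotted diagonals to the left and right, the control groups differ more than the treated groups. *Mmp7* at 2.04 and 0.14, *Dmbt1* at 1.42 and -0.09 and *Acadl* at 1.08 and -0.03 lie far to the right, whereas *Hpgd* at -0.14 and -1.49 and *Reg3a* at 0.05 and 3.65 lie near the vertical line.

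The number of calls depended on single libraries. Leaving out Ctrl 1 left 4 genes on the stress side and 8 on the CORT side, Ctrl 2 left 6 and 7, Ctrl 3 left 13 and 17, stress 1+2 left 12 and 8, vehicle 5 left 13 and 16, vehicle 6 left 12 and 18, CORT 2 left 9 and 13, CORT 4 left 6 and 7, and CORT 5 left 10 and 14. Leaving out stress 4+5+6 gave 26 and 25 and leaving out vehicle 3 gave 43 and 26. Without stress 3, the counts rose to 183 and 58, and these held all 56 genes. The difference kept its sign in each of the 56 genes in every one of the 12 leave-outs. The 4 genes *Mmp7*, *Gramd3*, *Fgfr2* and *Reg1* on the stress side and the 6 genes *Hpgd*, *Clic4*, *Sesn1*, *Trp53inp1*, *Rrm2* and *Glul* on the CORT side were called in all 12 leave-outs, and *Mmp7*, *Gramd3*, *Hpgd* and *Clic4* also under the 11 other settings tried.

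**Figure D3:**
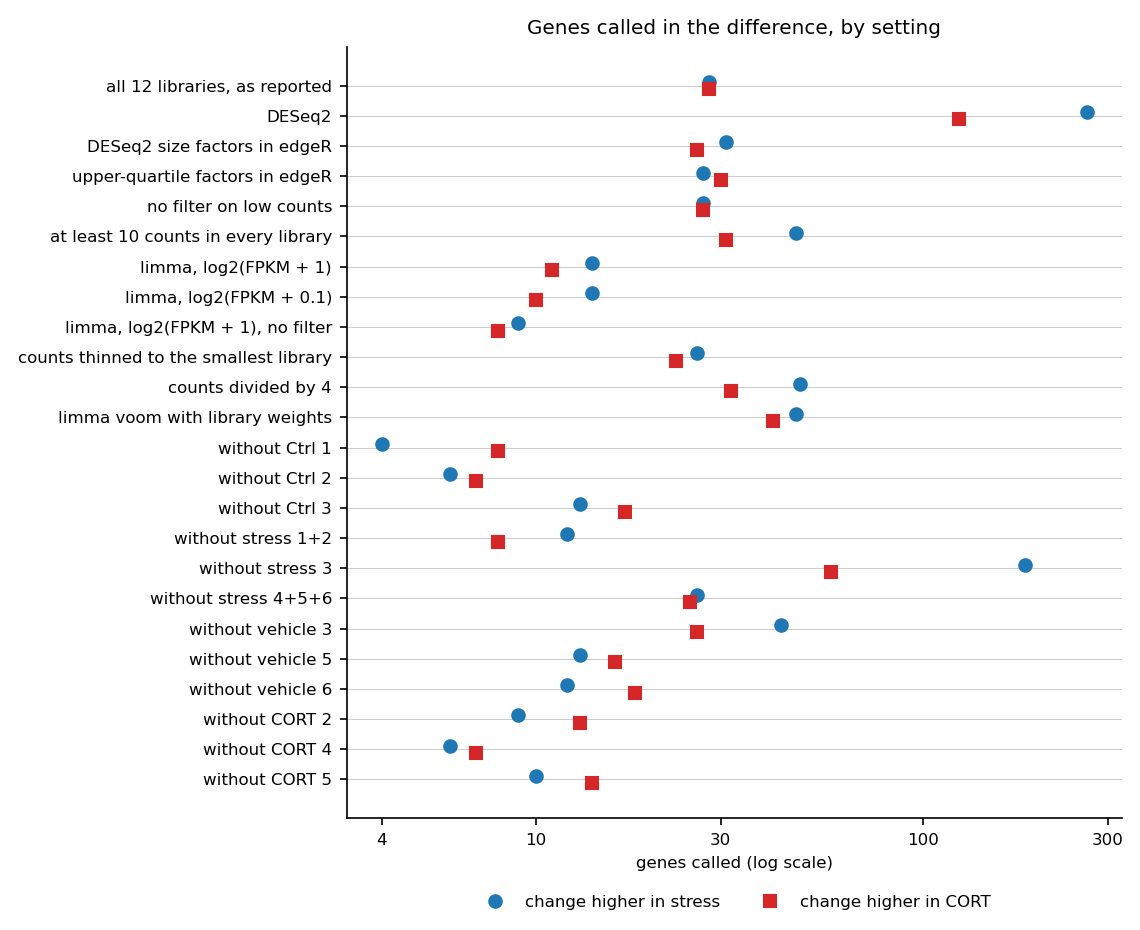
Number of genes called in the difference (log scale) for all 12 libraries and each of 23 other settings, with blue circles for a higher change in stress and red squares for a higher change in CORT. The counts run from 4 without Ctrl 1 to 265 with DESeq2 on the stress side and from 7 without Ctrl 2 or CORT 4 to 124 with DESeq2 on the CORT side.

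Sequences are shown for the genes called under every setting, as far as a promoter of theirs was at hand, since these carry the most stable part of the difference. RefSeq promoters on GRCm38.p6 (250 bases before and 50 after the start site) were found for 5 of 6 genes, the 3 with the smallest p on each side, and *Gramd3* had no entry. The 250 bases before the start site follow for *Mmp7* (chr9:7691840-7692089, plus strand), *Hpgd* (chr8:56294302-56294551, plus strand) and *Clic4* (chr4:135272761-135273010, minus strand), 5′ to 3′, with every CpG dinucleotide in capitals.
*Mmp7*: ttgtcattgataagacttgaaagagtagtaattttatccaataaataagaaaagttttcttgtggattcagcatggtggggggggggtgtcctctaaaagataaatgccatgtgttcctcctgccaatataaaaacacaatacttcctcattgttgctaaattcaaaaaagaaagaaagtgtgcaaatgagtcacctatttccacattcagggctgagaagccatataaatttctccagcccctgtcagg
*Hpgd*: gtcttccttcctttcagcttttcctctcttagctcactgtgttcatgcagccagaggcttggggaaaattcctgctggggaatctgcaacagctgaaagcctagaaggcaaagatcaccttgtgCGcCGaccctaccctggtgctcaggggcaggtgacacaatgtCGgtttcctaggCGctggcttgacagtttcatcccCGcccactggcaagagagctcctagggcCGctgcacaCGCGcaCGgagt
*Clic4*: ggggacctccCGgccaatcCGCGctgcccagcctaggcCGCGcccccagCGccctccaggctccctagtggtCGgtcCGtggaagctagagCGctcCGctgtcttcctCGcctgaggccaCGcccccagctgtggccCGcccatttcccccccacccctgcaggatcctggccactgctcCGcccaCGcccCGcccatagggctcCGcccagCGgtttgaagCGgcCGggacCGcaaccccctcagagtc
The stretch before *Mmp7* held 0 CpG and 38% G and C, that before *Hpgd* 9 CpG and 56.8%, and that before *Clic4* 21 CpG and 73.2%, against a median of 6 CpG and 52.4% over 32851 promoters. In 7 promoters of the 5 genes, both strands were searched for the full glucocorticoid response element, its half-site TGTTCT, the D-box TTATGNAA, the E-box CACGTG and the FoxO site GTAAACA. A full element can share letters with a half-site that reaches past its end. The promoters of *Hpgd* and *Clic4* held none of these letters. *Mmp7* held the half-site at bases 20 to 25 after the start site shown, and its other start site had the half-site at -193 to -188 and -232 to -227 and the E-box at -50 to -45, in a stretch that lies within the gene as the files give it. *Fgfr2* held an E-box and *Sesn1* a FoxO site after the start. Of all promoters, 0.475% held the full element, 19% the half-site, 3.38% the D-box, 7.15% the E-box and 3.65% the FoxO site. These matches are letters in a window and were not tested as binding sites.

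The called glucocorticoid targets had a higher change in CORT. Of 28 targets of the hormone in the list, 27 were tested, 4 were called on the CORT side (*Glul*, *Mt2*, *Bcl6* and *Mt1*) and none on the stress side. At an unadjusted p under 0.05, 9 were on the CORT side and 2 on the stress side (*Irs2* and *Pdk4*). The median difference was -0.50 on the log2 scale (median of all genes -0.009), with median changes of 1.07 in stress, 1.68 in CORT and -0.08 in vehicle against Ctrl. The summed level of the list was 2320 to 2410 CPM in stress and 3300 to 5290 CPM in CORT, against 997 to 1110 CPM in Ctrl and 1070 to 1170 CPM in vehicle. In this sum, which abundant members dominate, the control groups lay close together and the treated groups did not overlap. The median level of the members did overlap between the treated groups, at 40.4 to 47.0 CPM in stress and 27.4 to 48.6 CPM in CORT.

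*Glul*, glutamine synthetase, makes glutamine from glutamate and ammonia and is a classic glucocorticoid target. It was at 187, 176 and 167 CPM in Ctrl, 303, 325 and 315 CPM in stress, 148, 161 and 164 CPM in vehicle and 790, 731 and 513 CPM in CORT. Both treated groups lay above their controls, and every CORT library above every stress library. The difference was -1.27 ± 0.18 (log2, SE, adjusted p = 0.00747, edgeR), with a rise of 0.83 in stress and 2.10 in CORT. *Mt1* and *Mt2* encode metallothioneins, which bind zinc and other metals. *Mt2* was at 27.6, 37.5 and 35.3 CPM in Ctrl, 35.1, 30.6 and 47.5 CPM in stress, 34.1, 19.6 and 20.5 CPM in vehicle and 168, 152 and 91.9 CPM in CORT. Only the CORT libraries stood apart, and the difference was -2.31 ± 0.35 (adjusted p = 0.0139). *Mt1* showed the same order at 132 to 168 CPM in Ctrl, stress and vehicle, and 425, 330 and 284 CPM in CORT (-1.13 ± 0.19, adjusted p = 0.0267). *Bcl6*, a transcriptional repressor, was at 22.9, 19.4 and 18.2 CPM in Ctrl, 13.1, 18.9 and 10 CPM in stress, 13.6, 11.5 and 7.81 CPM in vehicle and 43.9, 46.1 and 26.2 CPM in CORT. It was called in CORT alone, with a difference of -2.36 ± 0.37 (adjusted p = 0.0173). The calls of *Mt2*, *Bcl6* and *Mt1* were lost in 3, 4 and 5 of the 12 leave-outs, stress 1+2 and CORT 4 among them for each, with an adjusted p of at most 0.0881.

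The targets most often used to read glucocorticoid action rose in both treatments without a called difference in the edgeR test. *Fkbp5* and *Tsc22d3* were called with DESeq2 (adjusted p = 0.0126 and 0.0157). *Fkbp5*, a co-chaperone that lowers the affinity of the receptor for its hormone, was at 68.2, 65.5 and 58.2 CPM in Ctrl, 186, 192 and 252 CPM in stress, 138, 183 and 191 CPM in vehicle and 865, 958 and 927 CPM in CORT. The vehicle libraries lay above every Ctrl library (vehicle minus Ctrl 1.42, adjusted p = 5.0e-04), and the highest of them, vehicle 6, lay within the stress range. Stress and CORT differed by -2.12 (adjusted p = 6.4e-06), whereas the difference between the responses, 1.72 in stress and 2.42 in CORT, was -0.71 ± 0.19 (adjusted p = 0.114). *Tsc22d3*, which encodes the glucocorticoid-induced leucine zipper, was at 97.0 to 106 CPM in stress and 123 to 171 CPM in CORT against 28.2 to 39.9 CPM in the control groups, a difference of -0.73 ± 0.19 (adjusted p = 0.0991). *Sgk1*, a kinase that regulates sodium channels, was at 14.6, 21.4 and 13.8 CPM in Ctrl, 245, 153 and 207 CPM in stress, 6.42, 6.81 and 7.52 CPM in vehicle and 668, 384 and 115 CPM in CORT. Vehicle lay below Ctrl, CORT spread around the stress libraries, and the control term (-1.25) was larger than the treated term (-0.95). Its difference of -2.20 ± 0.64 (adjusted p = 0.157) was called only without CORT 5 (adjusted p = 0.00595). *Per1*, a clock gene with a glucocorticoid response, was at 45.4 to 57.9 CPM in Ctrl, 85.5 to 93.5 CPM in stress, 32.1 to 54.4 CPM in vehicle and 88.7 to 116 CPM in CORT, and its difference was -0.50 ± 0.23 (adjusted p = 0.391), of which -0.26 lay between the control groups. The receptor gene *Nr3c1* itself was at 148 to 178 CPM in the Ctrl, stress and vehicle libraries and 121 to 129 CPM in CORT, a difference of 0.32 ± 0.11 (adjusted p = 0.211).

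*Hpgd* had the smallest p of all genes. It encodes 15-hydroxyprostaglandin dehydrogenase, which inactivates prostaglandin E2, a lipid signal that acts on ISCs. The gene (ENSMUSG00000031613, mm10, chr8:56294552-56321046, plus strand) was at 42.4, 45.2 and 40.2 CPM in Ctrl and 41.0, 37.4 and 37.7 CPM in vehicle. It reached 118, 106 and 131 CPM in stress and 370, 343 and 285 CPM in CORT, with no overlap between the treated groups or with the controls. The rise was 1.48 in stress and 3.10 in CORT, the difference -1.63 ± 0.15 (adjusted p = 0.00054), and vehicle minus Ctrl was -0.14. Of 10 tested genes of prostaglandin metabolism, it was the only one called.

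*Clic4* encodes an intracellular chloride channel protein (ENSMUSG00000037242, mm10, chr4:135213969-135272814, minus strand). It was at 95.6, 89.8 and 83.7 CPM in Ctrl, 110, 104 and 123 CPM in stress, 80.6, 87.5 and 73.0 CPM in vehicle and 250, 236 and 219 CPM in CORT. Every CORT library lay above every other library, and the stress libraries lay just above Ctrl. The difference was -1.23 ± 0.13 (adjusted p = 0.00107), from a rise of 1.55 in CORT (adjusted p = 4.1e-07) and a change of 0.32 in stress that did not pass (adjusted p = 0.0705).

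*Sesn1* and *Trp53inp1* are targets of p53, and *Sesn1* is also a target of FoxO factors. *Sesn1* encodes sestrin 1, a brake on the growth kinase complex mTORC1, and *Trp53inp1* a nuclear protein that promotes cell cycle arrest and autophagy. *Sesn1* was at 35.7, 42.1 and 41.3 CPM in Ctrl, 65.7, 51.6 and 67.9 CPM in stress, 21.6, 24.0 and 24.6 CPM in vehicle and 138, 137 and 90.8 CPM in CORT. Both treatments raised it, and vehicle lay below Ctrl (-0.76, adjusted p = 0.0477), so the control groups added to the difference of -1.74 ± 0.22 (adjusted p = 0.00434). *Trp53inp1* was at 30.2, 24.5 and 17.3 CPM in Ctrl, 92.1, 88.6 and 82.1 CPM in stress, 15.2, 15.4 and 11.9 CPM in vehicle and 224, 220 and 154 CPM in CORT. It rose by 1.87 in stress and 3.83 in CORT, a difference of -1.96 ± 0.26 (adjusted p = 0.0066). Among 25 tested p53 targets, these 2 genes were the ones called, and the median difference of the list was -0.07. At an unadjusted p under 0.05, 6 of the targets were on the CORT side and 0 on the stress side. *Cdkn1a*, the p53 target that inhibits cyclin-dependent kinases, spread from 9.70 to 33.3 CPM in stress and from 15.6 to 40.1 CPM in CORT, and its difference was -0.66 ± 0.59 (adjusted p = 0.714).

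FoxO factors are held out of the nucleus by insulin signaling and, when active, switch on genes of fasting and growth arrest. Of 34 genes of these factors, their targets and the insulin pathway, 3 were called on the CORT side (*Sesn1*, *Bcl6* and *Pik3r1*) and 0 on the stress side. At an unadjusted p under 0.05 there were 3 on the CORT side and 4 on the stress side, 20 of the 34 differences were above 0, and the median was 0.02. The *Bcl6* and *Sesn1* calls count here and in the lists above. *Pik3r1*, the regulatory subunit of phosphoinositide 3-kinase, was at 335, 326 and 348 CPM in Ctrl, 280, 300 and 333 CPM in stress, 293, 321 and 277 CPM in vehicle and 402, 418 and 424 CPM in CORT. The CORT libraries stood above all others, and the difference was -0.63 ± 0.11 (adjusted p = 0.0358, lost in 9 of 12 leave-outs). *Rbl2* and *Ccng2*, FoxO targets that restrain the cell cycle, rose in both treatments by 0.46 and 0.34 and by 1.07 and 1.23, and their differences were 0.13 ± 0.13 and -0.15 ± 0.21 (adjusted p = 0.764 and 0.83).

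*Rrm2*, the regulated subunit of ribonucleotide reductase, which makes the building blocks of DNA, was at 52.9, 58.0 and 49.1 CPM in Ctrl, 41.0, 51.9 and 52.2 CPM in stress, 56.1, 48.0 and 45.3 CPM in vehicle and 99.8, 99.9 and 97.7 CPM in CORT. The first 3 groups overlapped and CORT stood apart, with a difference of -1.14 ± 0.15 (adjusted p = 0.00691). Of 49 S phase and DNA replication genes tested, *Rrm2* was the only one called, 25 were on the CORT side and 0 on the stress side at an unadjusted p under 0.05, and the difference was above 0 in 1. The median difference was -0.33, from -0.16 in stress and 0.14 in CORT, and vehicle minus Ctrl had a median of 0.05. In stress vs. Ctrl, 6 members fell and 0 rose, and in CORT vs. vehicle 10 rose and 0 fell. The list summed to 3480 to 4150 CPM in stress, 4260 to 4640 CPM across the Ctrl and vehicle libraries and 4820 to 5410 CPM in CORT, 3 ranges that did not overlap. *Pcna*, the sliding clamp of DNA polymerase, was chosen after its values were seen and had means of 292 and 230 CPM in Ctrl and stress and 284 and 341 CPM in vehicle and CORT (-0.60 ± 0.16, adjusted p = 0.112).

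Other called genes of nucleotide supply and chromatin lay outside that list. *Ctps*, CTP synthase, was at 78.9 to 91.2 CPM in the control groups, 112, 106 and 89.9 CPM in stress and 214, 203 and 173 CPM in CORT (-0.90 ± 0.14, adjusted p = 0.0153, lost without Ctrl 1, Ctrl 2 or CORT 4). The following were called without being named by the rule for genes, and were picked out after their values were seen. *Dck*, deoxycytidine kinase, was at 33.7 to 44.2 CPM in the first 3 groups and 58.1 to 69.6 CPM in CORT (-0.91 ± 0.17, adjusted p = 0.0358, lost in 10 of 12 leave-outs). *Tcf19*, a gene of late G1, stood at 26.2 to 34.8 CPM in stress and 42.7 to 56.6 CPM in the other 9 libraries, so it fell in stress (-0.57, adjusted p = 0.00906) and did not pass in CORT (0.23, adjusted p = 0.209). *Ezh2*, a histone methyltransferase, had stress and CORT levels of 91.8 to 112 CPM, and its control term (-0.32) was larger than its treated term (-0.19). The calls of *Tcf19* and *Ezh2* were each lost in 9 leave-outs, and those of *Dck*, *Tcf19* and *Ezh2* were all lost without Ctrl 1, Ctrl 2, stress 1+2, vehicle 6 or any CORT library, with an adjusted p of at most 0.112. The G2 and mitosis list held 0 called genes of 46 (9 on the stress side and 1 on the CORT side at an unadjusted p under 0.05), with 17 members called higher in stress and 10 in CORT and a median difference of 0.13.

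**Figure D4:**
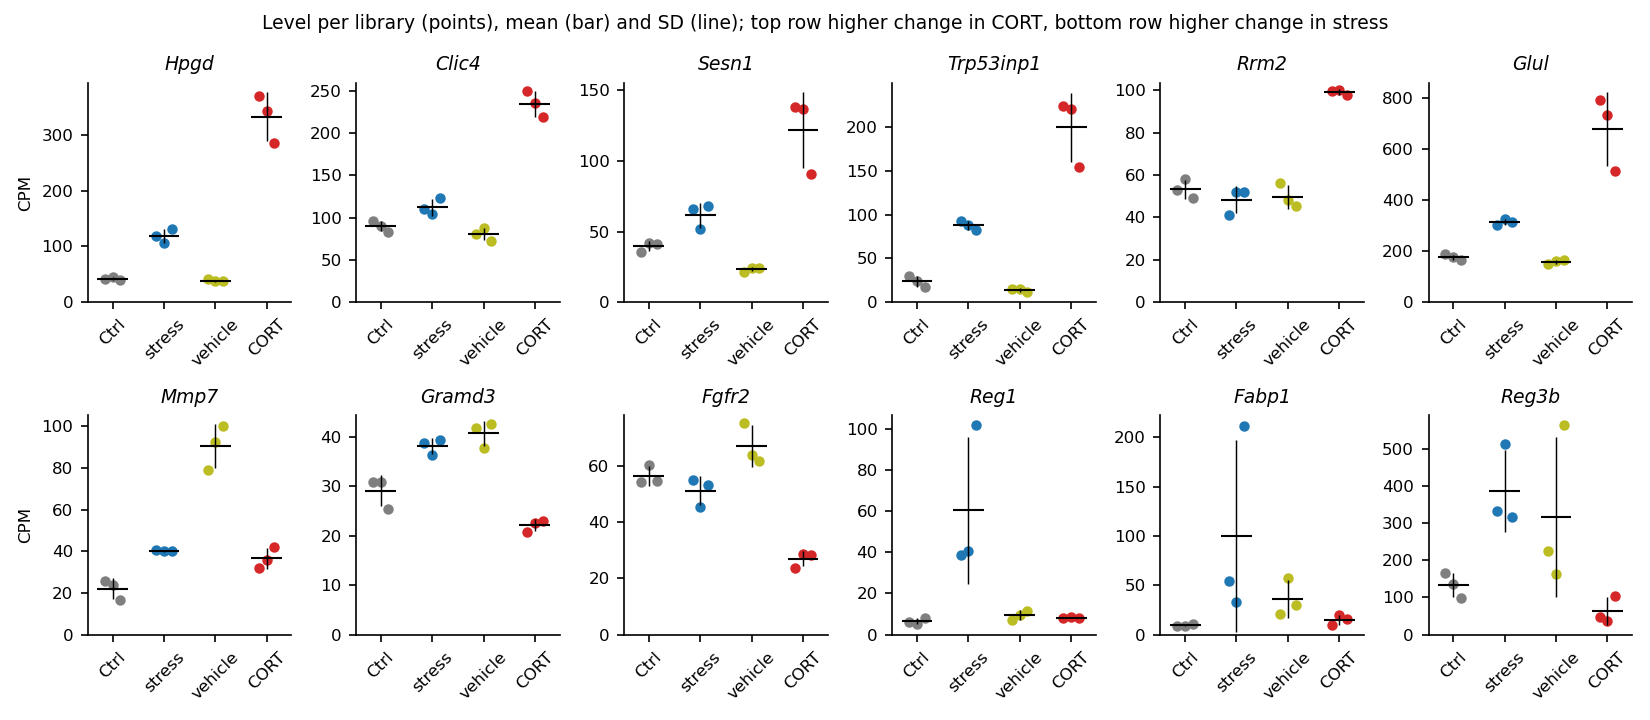
Level in CPM in each library (points), with the group mean (bar) and SD (line, n = 3), for 6 genes with a higher change in CORT (top) and 6 with a higher change in stress (bottom). In the top row the CORT points lie above all others. In the bottom row *Mmp7* is highest in vehicle at 79.2 to 100 CPM, *Fgfr2* and *Gramd3* are lowest in CORT, and *Reg1* and *Fabp1* are highest in stress 4+5+6.

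Other genes were called on the CORT side. *Cables1*, a protein that links cyclin-dependent kinases to tyrosine kinases, was at 19.5 to 29.8 CPM in the first 3 groups and 63.4, 58.2 and 63.4 CPM in CORT (-0.99 ± 0.15, adjusted p = 0.0139, lost without Ctrl 1). *Fut4*, a fucosyltransferase, was at 31.1, 39.8 and 33.2 CPM in Ctrl, 47.0, 44.2 and 60.4 CPM in stress, 29.4, 27.1 and 31.7 CPM in vehicle and 98.4, 101 and 87.2 CPM in CORT. It rose in both (0.54 and 1.70) with a difference of -1.16 ± 0.18 (adjusted p = 0.0153, lost without Ctrl 2, stress 1+2 or CORT 4). *Idi1*, an enzyme of cholesterol synthesis, was at 72.9, 78.5 and 59.0 CPM in Ctrl, 49.9 to 62.5 CPM in stress, 41.0 to 50.1 CPM in vehicle and 60.9 to 75.7 CPM in CORT. The CORT libraries lay within the Ctrl range, and vehicle minus Ctrl was -0.64 (adjusted p = 0.0407). The genes outside the rule were *Rhou*, *Lbh*, *Arl4c*, *Pcnx*, *Arrdc3*, *Snx7*, *Lrch1*, *Tmc7*, *Zfp36l2*, *Cirbp* and *Chrd*. *Arrdc3*, an alpha-arrestin, was at 7.84 to 12.2 CPM in vehicle and 19.0 to 41.0 CPM in the other 9 libraries, and its control term was -1.14 (adjusted p = 0.0118) of a difference of -1.29. The calls of *Idi1* and *Arrdc3* were each lost in 9 leave-outs, among them those without Ctrl 1, Ctrl 2, stress 1+2, stress 4+5+6, vehicle 6 or any CORT library, with an adjusted p of at most 0.122. *Chrd*, a secreted inhibitor of BMP signals, held 0 counts in the 3 stress libraries, which allows up to 0.693 to 0.746 CPM at 3 read pairs. Its Ctrl libraries were at 0.244 to 0.936 CPM, so no fold change can be given in stress, and CORT was at 2.10 to 3.99 CPM against 0.466 to 1.49 CPM in vehicle.

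Of 35 genes of absorptive enterocytes, 17 were called higher in stress (2.14% of all genes) and 2 in CORT (3.8% of all genes). Of the 35 genes of absorption and the brush border tested, 3 were called on the stress side (*Fabp1*, *Ace* and *Rbp2*) and 0 on the CORT side, 22 and 0 passed an unadjusted p of 0.05, and 31 differences were above 0. The median difference was 1.56, from 1.79 in stress and -0.05 in CORT, with -0.27 between vehicle and Ctrl. In stress vs. Ctrl, 17 members rose and 0 fell, and in CORT vs. vehicle 2 rose and 1 fell. The list summed to 4590, 3060 and 6980 CPM in stress against 2600 to 2930 CPM in the other 9 libraries, the same order of the stress libraries as for the enterocyte markers above. Goblet cell products had that order too, at 1000, 552 and 1540 CPM in stress against 433 to 792 CPM elsewhere, and 6 goblet markers summed to 940, 505 and 1460 CPM in stress against 389 to 733 CPM elsewhere. More enterocyte RNA per sorted cell and more enterocytes among the sorted cells cannot be told apart in bulk RNA, and the part of enterocytes and goblet cells in the results was not tested.

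*Fabp1*, the fatty acid-binding protein of liver and intestine, was at 9.06, 8.61 and 10.9 CPM in Ctrl, 54.8, 32.8 and 212 CPM in stress, 20.7, 57.1 and 29.9 CPM in vehicle and 9.82, 19.5 and 15.7 CPM in CORT. The stress and vehicle libraries overlapped. The difference was 4.65 ± 0.81 (adjusted p = 0.0294) and stayed called without stress 4+5+6 (3.46, adjusted p = 0.0124). *Rbp2*, which carries vitamin A in enterocytes, was at 65.7, 41.7 and 179 CPM in stress and 8.25 to 19.0 CPM in the other 9 libraries. Here the groups did not overlap and the control term was 0.62, for a difference of 3.29 ± 0.59 (adjusted p = 0.0355). *Ace*, the angiotensin-converting enzyme of the brush border, was at 51.1, 30.8 and 113 CPM in stress, 17.1 to 21.6 CPM in the control groups and 11.3, 13.7 and 11 CPM in CORT (2.61 ± 0.46, adjusted p = 0.0344). *St3gal4*, a sialyltransferase, had the same shape, with 90.7, 29.8 and 178 CPM in stress and 6.63 to 25.8 CPM elsewhere (3.48 ± 0.64, adjusted p = 0.0358). The calls of these 4 genes were lost in 8 or 9 of the 12 leave-outs, Ctrl 1, Ctrl 2, Ctrl 3, vehicle 5, vehicle 6 and each CORT library among them, with an adjusted p of at most 0.102. *Apol10a*, *Aoc1*, *Tmem236*, *Ezr*, *Sgpp2*, *Tjp3* and *Sema4a*, which the rule did not name, were also called. *Aoc1*, diamine oxidase, was at 203, 160 and 251 CPM in stress and 110 to 190 CPM elsewhere, whereas *Tjp3*, a tight junction protein, was at 344 to 412 CPM in the first 3 groups and 265 to 282 CPM in CORT, so it fell in CORT alone.

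Reg lectins and Paneth cell products gave the largest share of called genes among the lists. Of 14 tested, 5 were called on the stress side (*Mmp7*, *Reg1*, *Reg3b*, *Reg3a* and *Reg3g*) and 0 on the CORT side, and 12 and 0 passed an unadjusted p of 0.05. The median difference was 1.39, from 0.57 in stress and -0.67 in CORT. In stress vs. Ctrl, 3 members rose and in CORT vs. vehicle 7 fell. The 6 Paneth markers, which include *Mmp7*, summed to 104 to 116 CPM in CORT against 136 to 263 CPM in the other 9 libraries, and the part of Paneth cells, which the CD24-negative gate is meant to leave out, was not tested. *Reg1*, a secreted lectin of the regenerating gut, was at 6.26, 5.26 and 8.17 CPM in Ctrl, 38.6, 40.8 and 102 CPM in stress, 7.01, 9.72 and 11.6 CPM in vehicle and 8.19, 8.52 and 8.12 CPM in CORT. The 3 other groups lay together below 12 CPM, so it rose in stress alone (3.20, against -0.20 in CORT), and the difference was 3.40 ± 0.46 (adjusted p = 0.00711). *Reg3b* and *Reg3g* are bactericidal lectins that interleukin 22 induces. *Reg3b* was at 165, 136 and 98.9 CPM in Ctrl, 332, 513 and 316 CPM in stress, 224, 162 and 564 CPM in vehicle and 48.1, 35.3 and 105 CPM in CORT. Stress and vehicle overlapped, vehicle 6 was the highest library, and the gene fell in CORT (-2.35, adjusted p = 0.00513) with a change of 1.54 in stress that did not pass (adjusted p = 0.0748). *Reg3g* had the same order at 163 to 315 CPM in stress, 72.5 to 319 CPM in vehicle and 18.5 to 58.0 CPM in CORT (3.40 ± 0.67, adjusted p = 0.0461). The *Reg3* genes are close copies of each other, so reads could be split among them and their values are uncertain. *Reg3a* stood at 4.31 to 18.3 CPM in stress and 0.583 to 2.66 CPM elsewhere (3.70 ± 0.66, adjusted p = 0.0355). The calls of *Reg3b*, *Reg3g* and *Reg3a* were lost in 5, 8 and 9 of the leave-outs, Ctrl 1, Ctrl 2, Ctrl 3, CORT 2 and CORT 4 among them for each, with an adjusted p of at most 0.13. Among the genes that met the unadjusted threshold only, *Lyz1*, the Paneth cell lysozyme, had means of 41.3, 67.3, 34.7 and 24.5 CPM in Ctrl, stress, vehicle and CORT (1.20 ± 0.28, adjusted p = 0.0907).

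*Mmp7*, matrilysin, cuts precursors of Paneth cell defensins into their active form (ENSMUSG00000018623, mm10, chr9:7692090-7699585, plus strand). It had the smallest p on the stress side, and its larger term lay between the control groups. It was at 25.7, 24.0 and 16.5 CPM in Ctrl, 40.7, 40.2 and 39.9 CPM in stress, 79.2, 92.6 and 100 CPM in vehicle and 31.8, 35.9 and 42.1 CPM in CORT. The treated groups overlapped (stress minus CORT 0.14, adjusted p = 0.707), whereas vehicle lay far above Ctrl (2.04, adjusted p = 6.0e-05). It rose from a low control in stress (0.87) and fell from a high control in CORT (-1.31), which made the difference 2.18 ± 0.21 (adjusted p = 0.00069). *Dmbt1*, a mucosal scavenger receptor, was at 960, 968 and 1080 CPM in Ctrl, 1490, 2510 and 1960 CPM in stress, 2400, 3000 and 2630 CPM in vehicle and 2170, 2300 and 1880 CPM in CORT. Again stress and CORT overlapped (-0.09) and vehicle minus Ctrl was 1.42 (adjusted p = 0.00114), for a difference of 1.32 ± 0.21 (adjusted p = 0.0207, lost in 5 leave-outs). Its reads may be shared with *Fgfr2*, which overlaps it on the other strand. *Daglb* and *Slc39a10*, which the rule did not name, had control terms of 0.46 and 0.79 and treated terms of 0.40 and 0.39.

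A group of genes on the stress side fell in CORT and did not pass in stress. *Fgfr2*, a receptor for fibroblast growth factors in the crypt, was at 54.2, 60.4 and 54.6 CPM in Ctrl, 54.9, 45.5 and 53.2 CPM in stress, 75.4, 63.7 and 61.6 CPM in vehicle and 23.8, 28.7 and 28.2 CPM in CORT. CORT stood below every other library (-1.31, adjusted p = 9.1e-06), and stress vs. Ctrl did not pass (-0.14 ± 0.11, adjusted p = 0.578). The difference was 1.17 ± 0.16 (adjusted p = 0.0066). The files give *Fgfr2* (ENSMUSG00000030849) the span chr7:130162451-133123350 on the minus strand of mm10, which covers *Dmbt1*, *Oat* and other abundant genes, and no source used here says that counting took account of strand, so their reads cannot be told apart from those of *Fgfr2* with certainty. *Gramd3* (chr18:56432132-56503792, plus strand), a protein of contacts between the endoplasmic reticulum and the cell membrane, was at 30.9, 31.0 and 25.5 CPM in Ctrl, 38.9, 36.4 and 39.4 CPM in stress, 41.8, 37.8 and 42.6 CPM in vehicle and 20.8, 22.5 and 23.1 CPM in CORT. The stress and vehicle libraries overlapped, CORT was lowest, and the difference was 1.27 ± 0.15 (adjusted p = 0.00291). *Ttc22* was at 5.80 to 8.17 CPM in Ctrl, 6.98 to 12.1 CPM in stress, 11.5 to 13.3 CPM in vehicle and 2.66 to 4.20 CPM in CORT. Its difference was 2.34 ± 0.34 (adjusted p = 0.0114, lost without Ctrl 1), of which 0.90 lay between the control groups. *Clip2*, a microtubule-binding protein, was at 76.4 to 83.1 CPM in CORT and 128 to 166 CPM elsewhere (0.90 ± 0.14, adjusted p = 0.0139). *Pvrl2*, the adhesion protein nectin 2, was at 131 to 133 CPM in Ctrl and 124 to 136 CPM in stress. It was at 147 to 166 CPM in vehicle and 93.2 to 98.6 CPM in CORT. Its difference was 0.65 ± 0.10 (adjusted p = 0.0139), of which 0.23 lay between the control groups. *Il17rc*, a receptor subunit for interleukin 17, and *Slc1a3*, a glutamate transporter, also had their lowest libraries in CORT (44.9 to 47.6 and 51.2 to 55.1 CPM), with differences of 0.71 ± 0.12 and 0.80 ± 0.14 (adjusted p = 0.0294 for both), and the stress libraries lay above Ctrl in both without passing (adjusted p = 0.361 and 0.0796). These calls were lost in 2, 3, 8 and 9 leave-outs for *Clip2*, *Pvrl2*, *Il17rc* and *Slc1a3*, with Ctrl 1 and CORT 4 among them for each and an adjusted p of at most 0.0941.

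Receptor tyrosine kinases and their feedback inhibitors held *Fgfr2* as the only called member of 21, with 7 on the stress side and 0 on the CORT side at an unadjusted p under 0.05 and a median difference of 0.37. In CORT vs. vehicle 5 fell and 1 rose, and in stress vs. Ctrl 3 rose and 0 fell. *Dusp4*, a phosphatase of the ERK kinases picked after its values were seen, had means of 16.2 and 13.4 CPM in Ctrl and stress and 13.5 and 5.23 CPM in vehicle and CORT (1.09 ± 0.27, adjusted p = 0.0981).

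Genes of fatty acid oxidation differed between the control groups. Fatty acids are burned in mitochondria when food is short, under the nuclear receptor PPAR alpha. Of 31 genes tested, *Acadl* alone was called, 18 were on the stress side and 2 on the CORT side at an unadjusted p under 0.05, and the median difference was 0.66. Median changes were 0.34 in stress and -0.26 in CORT, and 7 members were higher in vehicle than in Ctrl with 0 lower (median 0.48). The list summed to 2680 to 2910 CPM in Ctrl, 3670 to 5450 CPM in vehicle, 3100 to 4630 CPM in stress and 3930 to 4380 CPM in CORT. In this sum the treated groups overlapped and the control groups did not. The median level of the members overlapped between the control groups, at 56.7 to 62.4 CPM in Ctrl and 60.4 to 81.1 CPM in vehicle. No member was called between stress and CORT. *Acadl*, the long-chain acyl-CoA dehydrogenase, was at 88.0, 102 and 86.8 CPM in Ctrl, 101, 112 and 153 CPM in stress, 180, 196 and 211 CPM in vehicle and 132, 121 and 120 CPM in CORT. It fell in CORT from the high vehicle level (-0.65, adjusted p = 0.00548), did not pass in stress (0.40, adjusted p = 0.114), and its difference was 1.05 ± 0.18 (adjusted p = 0.0294, lost in 8 leave-outs). *Angptl4*, a lipase inhibitor, and *Pdk4*, which keeps pyruvate out of the mitochondrion, rose in both treatments. *Angptl4* was called with DESeq2 (adjusted p = 0.00999). It was at 4.61 to 6.2 CPM in Ctrl, 74.0 to 97.2 CPM in stress, 13.4 to 22.5 CPM in vehicle and 95.5 to 159 CPM in CORT, and *Pdk4* was at 0.936 to 1.85, 38.2 to 98.1, 8.88 to 9.63 and 83.4 to 206 CPM. For both, the stress and CORT libraries overlapped and the highest library was in CORT, and their differences were 1.11 ± 0.30 and 1.60 ± 0.60 (adjusted p = 0.123 and 0.284), and vehicle lay above Ctrl by 1.75 and 2.66 (adjusted p = 0.00367 and 0.029).

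ISC genes and Wnt genes showed no called difference. Of 24 ISC genes, 6 were on the stress side and 0 on the CORT side at an unadjusted p under 0.05 (median difference 0.16), and of 21 Wnt receptors and targets 5 and 1 (median 0.08). *Lgr5* was at 224, 206 and 245 CPM in Ctrl, 248, 173 and 216 CPM in stress, 210, 194 and 194 CPM in vehicle and 128, 159 and 159 CPM in CORT. CORT alone lay below the rest (-0.43, adjusted p = 0.0464), and the difference was 0.34 ± 0.17 (adjusted p = 0.455). *Ascl2*, a transcription factor that maintains ISCs, fell in both, to 53.8 to 69.0 CPM in stress and 59.3 to 108 CPM in CORT from 138 to 171 CPM in the controls, a difference of -0.23 ± 0.23 (adjusted p = 0.743) that turned to 0.02 without CORT 5. *Olfm4*, the most abundant ISC marker, was at 6880 to 10300 CPM in all libraries (0.07 ± 0.14, adjusted p = 0.892, -0.02 without stress 3). *Slc14a1*, a urea transporter, fell in both treatments (-1.69 and -1.50), with a difference of -0.19 ± 0.41 (adjusted p = 0.903, 0.29 without CORT 5).

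*Herpud1*, *Ddit4*, *Dbp* and *Arntl* changed in both treatments without a called difference. Of the 36 genes of the unfolded protein response, 1 rose in stress (2.14% of all genes). In CORT, 2 rose and 3 fell (3.8% and 4.43% of all genes). These calls are so few that nothing is read from them about the list. *Herpud1*, a part of the machinery that degrades misfolded proteins of the endoplasmic reticulum, was at 359 to 367 CPM in stress and 452 to 646 CPM in CORT against 66.5 to 117 CPM in the controls, a difference of -0.87 ± 0.22 (adjusted p = 0.0969, called with DESeq2 at 0.00449). *Ddit4*, a brake on mTORC1, was at 502 to 608 CPM in stress and 465 to 1130 CPM in CORT (-0.44 ± 0.32, adjusted p = 0.64). *Dbp*, a clock output factor that binds the D-box, fell to 1.06 to 2.06 CPM in stress and 0.757 to 0.931 CPM in CORT from 9.21 to 25.1 CPM in the controls (1.21 ± 0.47, adjusted p = 0.30), and it overlaps *Sphk2* on the other strand. *Arntl*, the clock activator, rose by 1.08 in stress and 1.25 in CORT (-0.18 ± 0.25, adjusted p = 0.835, 0.03 without CORT 2).

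**Figure D5:**
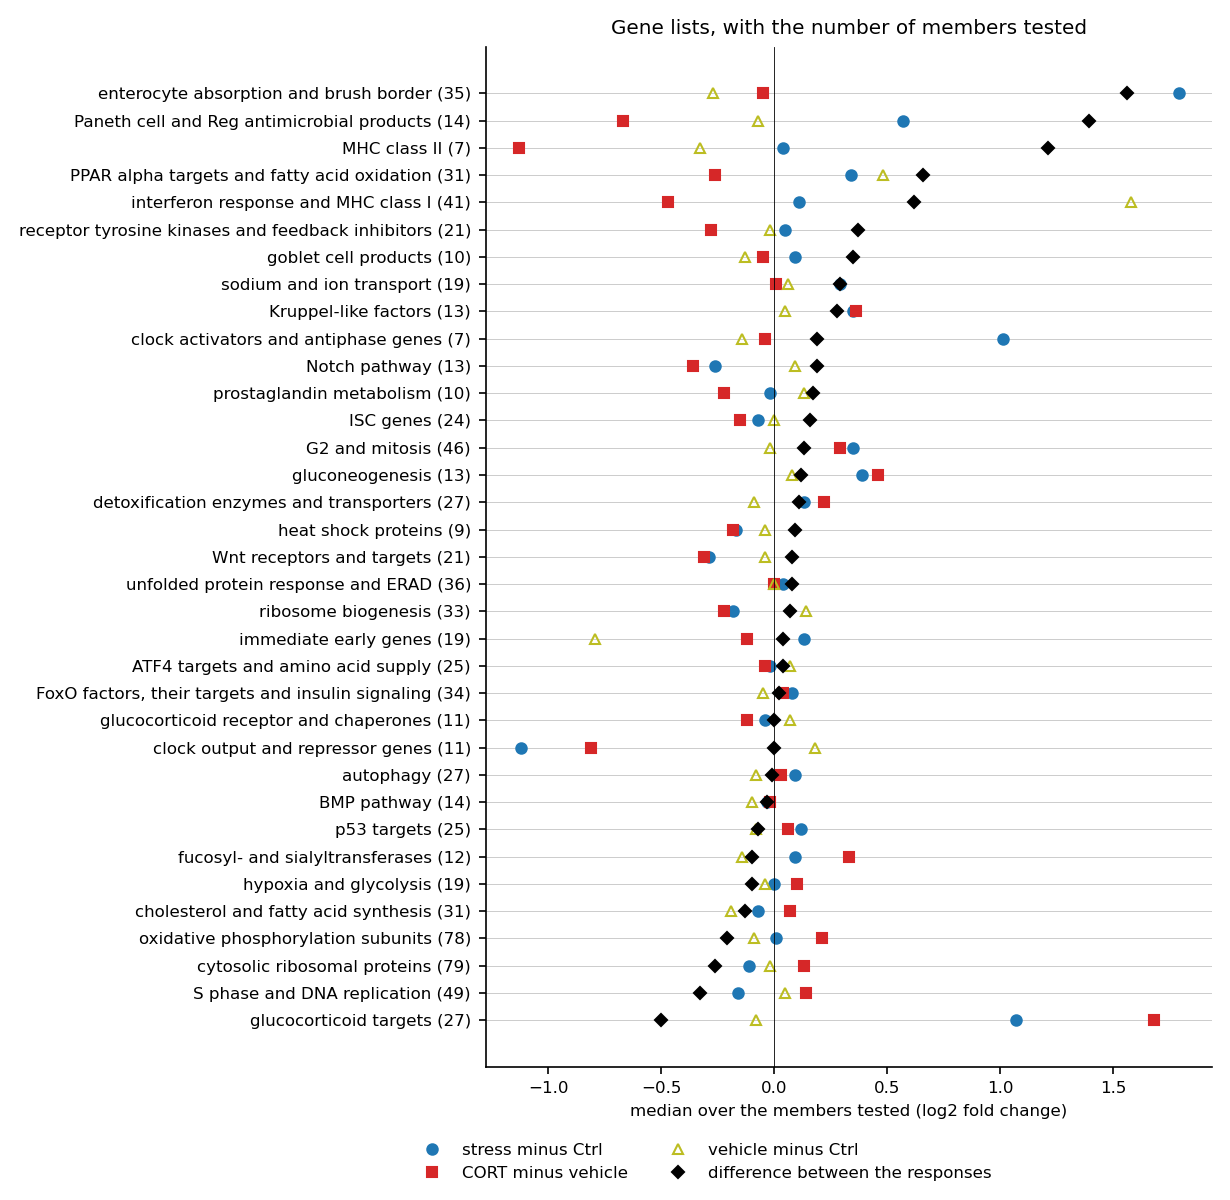
Median log2 fold change over the tested members of 35 gene lists (number tested in brackets) in stress against Ctrl (blue), CORT against vehicle (red) and vehicle against Ctrl (open triangles), with the difference between the responses in black, ordered by that difference. Enterocyte genes (1.56) and Paneth cell and Reg products (1.39) lie at the top and glucocorticoid targets (-0.50) and S phase genes (-0.33) at the bottom, while for fatty acid oxidation and interferon genes vehicle against Ctrl is above both treatments.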

How the data were processed

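RNA-seq of sorted Lgr5-EGFP-hi ISCs was analysed in 12 libraries, 3 in each of 4 groups taken from the labels. The authors deposited estimated counts per gene from StringTie, and files with FPKM and coverage (mean signal per base) for each library. The submitters' processing notes name HISAT2 2.2.1 and StringTie 2.2.1 with mm10, whereas the paper's methods name another HISAT2 version and featureCounts. Reads were 150 bases and paired, and a read pair gives up to 4 estimated counts, so 3 read pairs (12 counts) were taken as the floor, 0.179 to 0.746 CPM by library. The paper's methods state at least 3 biologically independent samples for each group, and counting limits cover counting error only. Genes with low counts were removed with filterByExpr, leaving 14415 of 47729. One model with 4 groups was fitted with edgeR 4.0.16 (TMM, quasi-likelihood F-test, Benjamini-Hochberg over all genes tested, adjusted p under 0.05, R 4.3.3). Adjusted p values in the text come from it, except those given for DESeq2 or for the leave-outs, which were refitted in the same way. Levels are CPM scaled with TMM. SE is the log2 difference divided by the square root of F. The biological coefficient of variation was 19.2%. The fit was tested on simulated data. Named genes were the 12 with the smallest p on each side among those with a mean of at least 1 CPM, up to 5 called members of each list, and a set of well-known genes. Other genes were chosen after their values were seen. The members and the 36 gene lists were chosen with earlier results of these data known. Alternatives were DESeq2 1.42.0, limma 3.58.1 on log2(FPKM + pseudocount) and voom weights, other scalings and filters, thinned or divided counts, and leaving out each library. FPKM values were used for the limma alternatives only, and the coverage signal only to relate counts to bases. Promoters were RefSeq entries on GRCm38.p6.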

Additional observations from a re-analysis of the deposited data

How the results depend on the processing

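The number of called genes on the stress side and the CORT side depended on the test and on single libraries, and the cause was not tested. DESeq2 called 265 and 124 genes, limma on log2(FPKM + 1) 14 and 11, on log2(FPKM + 0.1) 14 and 10, and without a filter 9 and 8. At least 10 counts in every library gave 47 on the stress side, counts divided by 4 gave 48 and voom with library weights 47. Leaving out 1 library gave 4 to 183 genes on the stress side and 7 to 58 on the CORT side, and the effect of each library is given in the report. Of the named genes not called, 4 turned sign without 1 library. Over the leave-outs, *Ascl2* ran from -0.42 to 0.02 and *Slc14a1* from -0.53 to 0.29 (both highest without CORT 5), *Olfm4* from -0.02 (without stress 3) to 0.18, and *Arntl* from -0.36 to 0.03 (without CORT 2). Where a group is left with 2 libraries, its spread is pooled with the other groups. Some replicate numbers recur between groups, but the labels do not state that they mark pairs. No paired analysis was run. The libraries of CORT were the deepest, so a low gene was measured less precisely in stress and in Ctrl.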

Other observations

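Interferon response and MHC class I genes, which mark antiviral signals and antigen display, had no called member of 41. Their difference was above 0 in 40, with a median of 0.62, and 3 members passed an unadjusted p of 0.05 on the stress side and 0 on the CORT side. Median changes were 0.11 in stress and -0.47 in CORT. The median of vehicle minus Ctrl was 1.58 and that of stress minus CORT -0.52, so the positive side came from the control groups. Their summed level was 1780 to 3300 CPM in Ctrl, 1960 to 3030 CPM in stress, 2780 to 5610 CPM in vehicle and 1990 to 4680 CPM in CORT, so the groups overlapped. MHC class II genes, which present antigen to helper T cells, lay above 0 in 7 of 7 with a median difference of 1.21 and none called, and they summed to 559 to 1750 CPM in Ctrl, 533 to 2590 CPM in stress, 724 to 1240 CPM in vehicle and 156 to 675 CPM in CORT.

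Immediate early genes, which respond within minutes to stimuli and to tissue handling, had a median difference of 0.04 with 0 called of 19. In them, 5 were lower in vehicle than in Ctrl, and 10 were higher in stress than in CORT. Cytosolic ribosomal proteins had 1 of 79 differences above 0 (median -0.26, 0 called), and their summed level of 88300 to 112000 CPM in stress overlapped that of 102000 to 122000 CPM in CORT. Oxidative phosphorylation subunits, which make up the respiratory chain, had a median difference of -0.21 with 0 called of 78.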
